A study of Homo sapiens with 14 samples.

Results

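The 30 genes described here encode the machinery of RNA polymerase I (15 genes) and RNA polymerase III (15 genes), chosen by name: subunits of both enzymes and the factors that load them onto their genes. Each name matched 1 of the 62699 genes counted, and all 30 were abundant enough to be tested. RNA polymerase I makes the large precursor of ribosomal RNA in the nucleolus. SL1 (TAF1A to TAF1D with the TATA-binding protein), UBTF and RRN3 bring it to the ribosomal genes, and TTF1 ends its transcripts. RNA polymerase III makes transfer RNAs, 5S ribosomal RNA and other short RNAs. TFIIIC (GTF3C1 to GTF3C5) binds inside those genes, and TFIIIB, which holds BRF1 and BDP1, then recruits the enzyme. POLR1C and POLR1D are built into both enzymes and are counted here with polymerase I.

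The libraries are bulk RNA sequencing of human cancer cell lines, with poly(A) selection of the RNA per the labels' protocols. ADAR, the enzyme that converts adenosine to inosine in double-stranded RNA, was targeted with siRNA in MDA-MB-231 and BT-549 (triple-negative breast cancer), NCI-H1395 (lung) and AGS (gastric). Each line has 2 ADAR siRNA libraries, numbered 1 and 2, and 1 control siRNA library. MDA-MB-231 also has 1 library with NOP14 overexpression, against 1 library named PCDH. NOP14 is a factor of the complex that processes the small ribosomal subunit's RNA. Whether numbers 1 and 2 are different siRNAs or repeats of 1 siRNA, and whether libraries come from separate cultures, is not stated, so p-values measure only the spread between these libraries. In bulk RNA, fewer cells carrying a transcript and less of it per cell cannot be told apart.

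Libraries held 13338338 to 27828376 counts, and a member had between 87 and 5903 counts in any library. Levels are CPM, a library's counts scaled to a common size, after TMM scaling, a correction for differences in library make-up. ADAR was at 96.4 and 101 CPM in MDA-MB-231 ADAR siRNA libraries 1 and 2 and 299 CPM in the control, and at 103 and 91.5 CPM with ADAR siRNA in BT-549 and 798 CPM in the control. In NCI-H1395 it was at 41.4 and 46.5 CPM with ADAR siRNA and 392 CPM in the control, and in AGS at 134 and 181 CPM with ADAR siRNA and 757 CPM in the control. ADAR fell in each line. Its log2 fold change was -1.60 ± 0.26 in MDA-MB-231, -3.04 ± 0.26 for BT-549, -3.16 ± 0.26 for NCI-H1395 and -2.27 ± 0.25 for AGS (largest edgeR adjusted p = 0.00663). Over the 4 lines its change was -2.50 ± 0.29 but missed the threshold of 0.05 (edgeR adjusted p = 0.0996). Over the 3 lines other than MDA-MB-231 the change was -2.80 ± 0.17 (adjusted p = 6.5e-06). Errors after ± are standard errors from the fits. In MDA-MB-231 and BT-549, VIM was at 1006 CPM or more and the receptor genes ESR1 and PGR below 1 CPM. These genes do not set the breast lines apart from NCI-H1395, where VIM was at 1441 to 2508 CPM. In AGS VIM was at 3.68 to 8.15 CPM, and ESR1 and PGR were below 1 CPM in NCI-H1395 and AGS as well. ERBB2, the other receptor expected to be low there, was at 58.2 to 132 CPM in both lines, and KRT8, expected to be present, was at 1.62 to 4.26 CPM in BT-549. Epithelial EPCAM was at 314 to 394 CPM in AGS, but lung markers NKX2-1, NAPSA, SFTPB and SFTPC were all below 1 CPM in NCI-H1395. The lung marker KRT7 was at 4.38 to 7.46 CPM there and at 208 to 441 CPM in MDA-MB-231. Of the epithelial genes in NCI-H1395, EPCAM, CDH1 and KRT19 were below 1 CPM, KRT8 was at 166 to 238 CPM and KRT18 at 389 to 583 CPM. The gastric markers TFF1, TFF2, MUC5AC, CLDN18 and GKN1 reached at most 2.34 CPM in AGS, where CDH17 was at 120 to 317 CPM. In MDA-MB-231, TFF1, TFF2 and MUC5AC were at 1.78 to 9.79 CPM.

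The MDA-MB-231 siRNA libraries stood apart from the other libraries in RNAs made by polymerase III. RN7SL1, the RNA of the signal recognition particle and a polymerase III product without a natural poly(A) tail, was at 19385 and 24756 CPM in MDA-MB-231 ADAR siRNA libraries 1 and 2 and 20196 CPM in the control siRNA library. It was at 5.27 CPM under NOP14 overexpression and 3.80 CPM in PCDH in the same line, and at most 59.4 CPM in the other lines. RMRP, another polymerase III product, was at 1987 and 2613 CPM in the ADAR siRNA libraries and 2967 CPM in the control siRNA library, and below 0.4 CPM in the other 11 libraries. Polymerase III products together made up 2.27% to 2.75% of counts in the MDA-MB-231 siRNA libraries and at most 0.00553% in any other library. Whether RNA selection differed between these libraries was not tested. Short RNAs of this kind are poorly measured after poly(A) selection, so the data give levels of the machinery and not of its products. Fold changes and counts of members with ADAR siRNA over the 4 lines are therefore also given without MDA-MB-231.

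The upstream sequences of 4 members are shown because they are the lowest member of each enzyme over the 4 lines (POLR1G and POLR3K) and the members below control in all 8 ADAR siRNA libraries (TTF1 and GTF3C4). Each is the 250 bases before the RefSeq start on GRCh38.p14, read 5′ to 3′ on the gene's strand. Capitals mark the searched motifs, found on either strand: the E-box CACGTG, the CCAAT box CCAAT and an ETS site CCGGAAG.
POLR1G, chr19:45406394-45406643, plus strand: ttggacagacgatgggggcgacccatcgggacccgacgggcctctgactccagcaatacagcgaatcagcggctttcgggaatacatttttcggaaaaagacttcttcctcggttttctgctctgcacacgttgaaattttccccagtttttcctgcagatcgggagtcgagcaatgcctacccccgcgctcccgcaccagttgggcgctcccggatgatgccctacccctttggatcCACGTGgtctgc
TTF1, chr9:132406841-132407090, minus strand: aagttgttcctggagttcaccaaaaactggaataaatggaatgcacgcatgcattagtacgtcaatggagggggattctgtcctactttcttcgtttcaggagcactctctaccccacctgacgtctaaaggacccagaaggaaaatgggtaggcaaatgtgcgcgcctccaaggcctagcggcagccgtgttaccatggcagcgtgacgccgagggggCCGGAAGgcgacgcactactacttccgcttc
POLR3K, chr16:53609-53858, minus strand: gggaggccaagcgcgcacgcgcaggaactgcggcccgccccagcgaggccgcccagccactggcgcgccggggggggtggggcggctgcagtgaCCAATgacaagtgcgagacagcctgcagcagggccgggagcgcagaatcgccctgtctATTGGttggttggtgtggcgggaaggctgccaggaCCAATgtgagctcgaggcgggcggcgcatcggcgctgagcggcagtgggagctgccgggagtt
GTF3C4, chr9:132669785-132670034, plus strand: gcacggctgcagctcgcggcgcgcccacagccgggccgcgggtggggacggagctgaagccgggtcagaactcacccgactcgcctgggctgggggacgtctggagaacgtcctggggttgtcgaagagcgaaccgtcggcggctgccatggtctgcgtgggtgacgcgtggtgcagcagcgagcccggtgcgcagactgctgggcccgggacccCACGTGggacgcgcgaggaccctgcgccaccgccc
The POLR3K window holds 3 CCAAT boxes, the POLR1G and GTF3C4 windows 1 E-box each, and the TTF1 window 1 ETS site, with no overlap between motifs. Among the 27 members with a sequence, 5 (18.5%) held an E-box, 9 (33.3%) a CCAAT box and 7 (25.9%) an ETS site. Over 27305 promoters of the same length these shares were 6.49%, 33.0% and 8.82%. Matches are letters in a window and are given as a description.

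The first question was whether ADAR siRNA moved the machinery over the 4 lines. None of the 30 members passed the adjusted threshold of 0.05 in edgeR's quasi-likelihood test, where 4 of 21944 genes did (0.0182%). At an unadjusted p below 0.05, 6 members differed and all 6 were lower with ADAR siRNA, against 11.5% of all genes in either direction and 5.08% lower. They were the polymerase I genes POLR1E, POLR1G and TTF1 and the polymerase III genes POLR3G, POLR3K and GTF3C5. All 6 had exon lengths (1869 to 4024 bases) below the members' median of 5643 bases. The part of exon length in these values was not tested. DESeq2 called 1 member, POLR3K, at -0.57 (adjusted p = 0.0287), with 533 of 9294 genes called (5.73%) and 29 members given an adjusted p. With MDA-MB-231 left out, edgeR called no member, where 0.372% of genes were called. Of the 6 members, POLR3G and POLR3K kept an unadjusted p below 0.05, a level reached by 12.9% of genes in that fit (4.91% lower).

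By direction alone, 21 of 30 members were lower, 10 of 15 for polymerase I (median log2 fold change -0.09) and 11 of 15 for polymerase III (median -0.06). The count depended on the scaling: it was 17 of 30 with library totals, with medians of -0.039 and -0.0047, 17 of 30 with no filter on low counts and 25 of 30 with RLE scaling. Of all genes tested 42.7% were lower, and of the 8930 genes in the members' range of abundance 51.8% were lower (median -0.01). Without MDA-MB-231 the count was 16 of 30, 8 of each enzyme, with a median of -0.03, against 48.0% of the genes in the same range. Roles differed in their counts: all 6 subunits found only in polymerase I were lower, as were 6 of 8 polymerase III subunits and 4 of 5 TFIIIC subunits, while 3 of 4 SL1 factors were higher. Over the 3 lines other than MDA-MB-231 these counts were 4 of 6, 4 of 8 and 3 of 5 lower, and again 3 of 4 SL1 factors higher. None of these members passed the adjusted threshold in edgeR.

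POLR3K, a small subunit that polymerase III needs to cut RNA and to end transcription, had the lowest p of the members. Its level was 12 and 18.5 CPM in MDA-MB-231 ADAR siRNA libraries 1 and 2 and 22.9 CPM in the control library. In BT-549 it had 28.4 and 18.5 CPM with ADAR siRNA and 26.9 CPM in the control, and in NCI-H1395 16.5 and 10.4 CPM with ADAR siRNA and 20.7 CPM in the control. In AGS the ADAR siRNA libraries had 7.86 and 10.5 CPM and the control 16.8 CPM. POLR3K was thus below its control in 7 of 8 ADAR siRNA libraries, the exception being BT-549 library 1. Over the lines its log2 fold change was -0.54 ± 0.16 (95% interval -0.88 to -0.20, edgeR adjusted p = 0.225). Leaving out MDA-MB-231 gave -0.52 ± 0.18 (adjusted p = 0.232).

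POLR3G, a subunit of the trimer that contacts TFIIIB and the one of the pair with POLR3GL that is high in stem and tumour cells, was also below control in 7 of 8 libraries. In MDA-MB-231 it had 23.9 and 27.3 CPM with ADAR siRNA and 32.7 CPM in the control, and in BT-549 75.4 and 49.6 CPM with ADAR siRNA and 76.5 CPM in the control. NCI-H1395 had 13.4 and 13.7 CPM with ADAR siRNA and 25.5 CPM in the control. AGS had 39.0 and 13.9 CPM with ADAR siRNA and 26.5 CPM in the control, so that the AGS libraries fell on both sides of their control. The log2 fold change over the lines was -0.38 ± 0.15 (95% interval -0.70 to -0.06, edgeR adjusted p = 0.344), and -0.38 ± 0.16 over the 3 lines other than MDA-MB-231 (adjusted p = 0.337). It rested unevenly on the libraries, at -0.68 without the libraries numbered 1, -0.20 without those numbered 2 and -0.20 without NCI-H1395. Its paralog POLR3GL, which takes the same place in the enzyme, was at 3.28 to 12.4 CPM in the siRNA libraries and below control in 3 of 8, and changed by 0.14 ± 0.25 on the log2 scale (edgeR adjusted p = 0.892), or 0.40 ± 0.24 without MDA-MB-231 (adjusted p = 0.527).

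POLR1G and POLR1E form a pair of subunits on the surface of polymerase I. POLR1G had 5.86 and 6.24 CPM in the MDA-MB-231 ADAR siRNA pair and 10.4 CPM in the control. In BT-549 it had 29.2 and 19.4 CPM with ADAR siRNA and 28.5 CPM in the control, and in NCI-H1395 27.9 and 31.9 CPM with ADAR siRNA and 32.5 CPM in the control. AGS had 7.46 and 8.52 CPM with ADAR siRNA and 12.6 CPM in the control. POLR1G was below control in 7 of 8 libraries, and its log2 fold change was -0.42 ± 0.16 (95% interval -0.77 to -0.08, edgeR adjusted p = 0.325). Over the other 3 lines it was -0.31 ± 0.17 (adjusted p = 0.466). Of its exon bases 49.8% are shared with ERCC1 on the opposite strand, a gene at up to 214 CPM, and the sources used here do not give the counting's strand setting. Reads of ERCC1 could therefore be in its count.

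POLR1E, its partner, had 47.9 and 50.4 CPM in the MDA-MB-231 ADAR siRNA pair and 75.9 CPM in the control. In BT-549 it had 191 and 145 CPM with ADAR siRNA and 170 CPM in the control. NCI-H1395 had 53.9 and 44.3 CPM with ADAR siRNA and 68.7 CPM in the control, and AGS had 19.7 and 21.2 CPM with ADAR siRNA and 21.2 CPM in the control. It was below control in both libraries of MDA-MB-231 and of NCI-H1395, and in AGS the values nearly coincided. The log2 fold change over the lines was -0.28 ± 0.12 (95% interval -0.54 to -0.01, edgeR adjusted p = 0.411). Over the other 3 lines it was -0.16 ± 0.13 (adjusted p = 0.659).

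**Figure D1:**
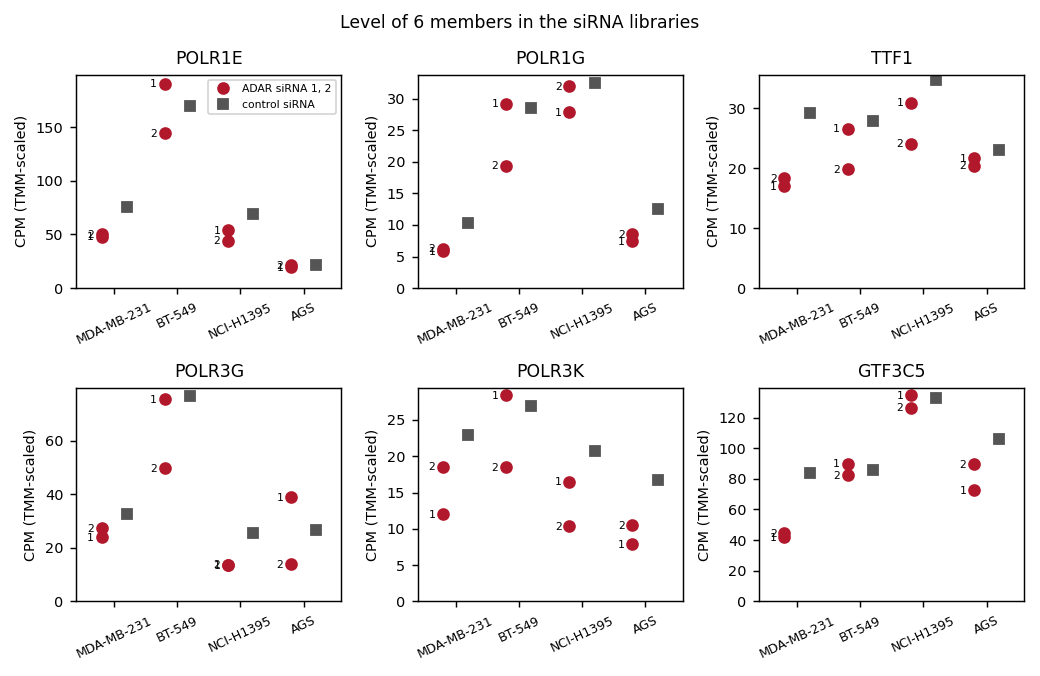
Level of 6 members in the siRNA libraries, in TMM-scaled CPM on linear axes from 0. Circles are ADAR siRNA libraries 1 and 2 and squares the control siRNA library of each line, 1 library per point. POLR3K lies below its control in 7 of 8 libraries, and GTF3C5 lies apart from its control mainly in MDA-MB-231, where it had 42.0 and 44.6 CPM with ADAR siRNA and 83.9 CPM in the control.

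TTF1, which ends polymerase I transcripts and positions nucleosomes at ribosomal genes, is a different gene from the lung marker NKX2-1 that shares its common name. It was below control in all 8 ADAR siRNA libraries. Its levels were 17.0 and 18.3 CPM in the MDA-MB-231 ADAR siRNA pair and 29.2 CPM in the control, and 26.6 and 19.8 CPM with ADAR siRNA in BT-549 and 27.9 CPM in the control. NCI-H1395 had 31.0 and 24.1 CPM with ADAR siRNA and 34.7 CPM in the control, and AGS had 21.7 and 20.4 CPM with ADAR siRNA and 23.0 CPM in the control. The log2 fold change was -0.34 ± 0.15 (95% interval -0.65 to -0.03, edgeR adjusted p = 0.379). Over the other 3 lines it was -0.22 ± 0.15 (adjusted p = 0.582). GTF3C4, a TFIIIC subunit with acetyltransferase activity, was the other member below control in all 8 libraries. Genes with an average log2 CPM over 1 did so in 5.22% of cases.

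GTF3C4 had 51.1 and 57.6 CPM in the MDA-MB-231 ADAR siRNA pair and 86.6 CPM in the control. In BT-549 it had 150 and 137 CPM with ADAR siRNA and 151 CPM in the control, and in NCI-H1395 183 and 171 CPM with ADAR siRNA and 191 CPM in the control. AGS had 93.7 and 98.5 CPM with ADAR siRNA and 103 CPM in the control. Outside MDA-MB-231 its levels stayed close to the control, and without that line its log2 fold change was -0.07 ± 0.11 (edgeR adjusted p = 0.864). GTF3C5, a DNA-binding TFIIIC subunit, had 89.9 and 82.4 CPM with ADAR siRNA in BT-549 and 86.1 CPM in the control. In NCI-H1395 it had 135 and 126 CPM with ADAR siRNA and 133 CPM in the control, and in AGS 72.6 and 89.5 CPM with ADAR siRNA and 106 CPM in the control. The GTF3C5 log2 fold change was -0.32 ± 0.15 over the 4 lines (95% interval -0.63 to -0.0042, edgeR adjusted p = 0.428). It was -0.11 ± 0.13 over the other 3 lines (adjusted p = 0.787).

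Within the lines, members were lower in 27 of 30 cases in MDA-MB-231, 18 of 30 in BT-549, 21 of 30 in NCI-H1395 and 16 of 30 in AGS. Over all genes tested 44.6% were lower in MDA-MB-231, 42.7% for BT-549, 43.2% for NCI-H1395 and 40.6% for AGS. In the genes of the same abundance range, 59.5% were lower in MDA-MB-231, 52.6% for BT-549, 53.6% for NCI-H1395 and 48.7% for AGS. In MDA-MB-231 the polymerase I median was -0.29 and the polymerase III median -0.35, against -0.08 for the genes of the same range. No member passed the adjusted threshold of edgeR or DESeq2 in any line, where edgeR called 0.0751% of genes in MDA-MB-231 and 0.00417% in each other line. At an unadjusted p below 0.05, edgeR gave 5 members in MDA-MB-231, all lower (POLR1E, POLR1G, TTF1, GTF3C4 and GTF3C5), 1 in AGS (POLR3K, -0.87 ± 0.40, edgeR adjusted p = 0.990) and none in BT-549 or NCI-H1395. All genes gave 4.85% in MDA-MB-231 (2.75% lower), 3.1% for BT-549, 5.3% for NCI-H1395 and 4.98% for AGS (2% lower). The GTF3C5 change in MDA-MB-231 was -0.95 ± 0.26 (edgeR adjusted p = 0.307).

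The response of a member was not shown to differ between the lines. In the edgeR F test of that difference no member passed the adjusted threshold, where 0.0292% of genes did, and none had an unadjusted p below 0.05, where 3.37% of genes did. The lowest p belonged to GTF3C5 (edgeR unadjusted p = 0.0643, edgeR adjusted p = 1).

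In MDA-MB-231, the 3 members on the band 9q34 of chromosome 9 were low together with the genes around them. They are TTF1 (chr9:132375548-132406851), GTF3C4 (chr9:132670035-132694953) and GTF3C5 (chr9:133030675-133058503), on hg38. In ADAR siRNA libraries 1 and 2, TTF1 was at 58.5% and 62.7% of the control, GTF3C4 at 59.1% and 66.5%, and GTF3C5 at 50.1% and 53.2%. The 100 tested genes nearest to TTF1, 50 on each side, had median log2 ratios of -0.81 and -0.61 in those libraries, beside -0.77 and -0.67 for TTF1 itself. The windows of the 3 genes overlap, so they are not separate readings. In BT-549 and NCI-H1395 the medians around TTF1 lay between 0 and 0.05, and in AGS they were -0.22 and 0.04. Off that band, 24 of 27 members were lower in MDA-MB-231, with a median of -0.22.

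POLR3G and POLR1G were among several members that lay apart from their neighbours. POLR3G, on chromosome 5, had log2 ratios of -0.45 and -0.26 in the MDA-MB-231 ADAR siRNA libraries where its neighbours had medians of 0.54 and 0.36. POLR1G, on chromosome 19, had -0.81 and -0.72 beside medians of 0 and -0.01. POLR1E had -0.66 and -0.59 beside medians of -0.09 and -0.10, and POLR3E -0.54 and -0.37 beside -0.05 and 0. POLR3K, with 53 neighbours near the chromosome end, had -0.93 and -0.31 in MDA-MB-231 beside -0.28 and -0.08. In AGS libraries 1 and 2 it had -1.08 and -0.67 beside -0.48 and 0. In BT-549 it had 0.08 and -0.53 beside 0.05 and -0.06, and in NCI-H1395 -0.33 and -0.99 beside 0.07 and 0. The part of copy number in these values was not tested. The endothelial marker PECAM1 was at 21.6 and 21.4 CPM in the MDA-MB-231 ADAR siRNA libraries and 5.88 CPM in the control, while VWF and CDH5 were at or below 0.27 CPM there, and its part in these results was not tested.

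**Figure D2:**
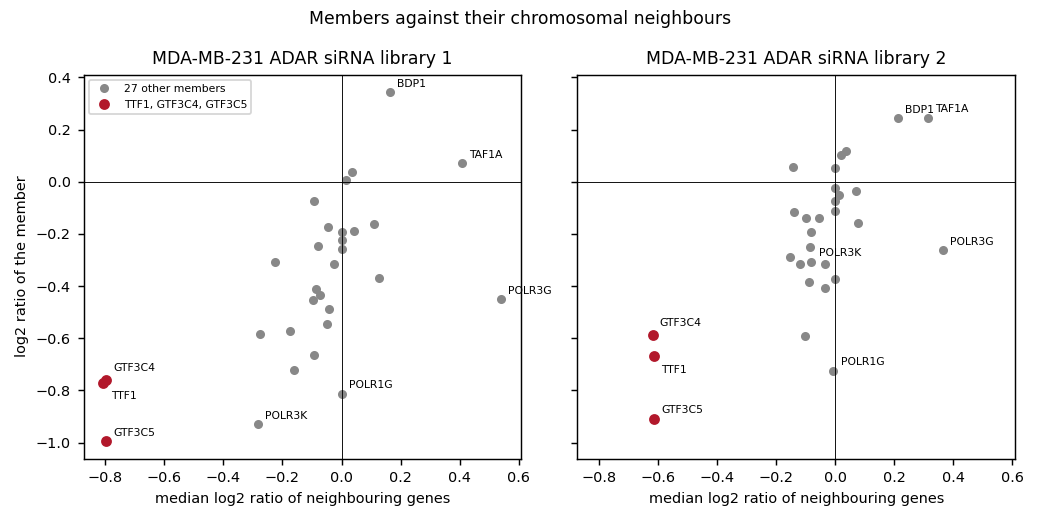
Log2 ratio of each of the 30 members to the control siRNA library (y axis) against the median log2 ratio of its nearest tested genes on the chromosome (x axis), in MDA-MB-231 ADAR siRNA libraries 1 (left) and 2 (right). TTF1, GTF3C4 and GTF3C5, in red, lie at the far left with neighbour medians of -0.81 to -0.61, while POLR3G lies below 0 with neighbours above 0.

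The numbered libraries differed in how many members were below control. Library 2 had 24 members lower than control in MDA-MB-231 and in BT-549 and 21 in each of NCI-H1395 and AGS. Library 1 had 26 lower in MDA-MB-231, 9 in BT-549, 16 for NCI-H1395 and 14 for AGS. Of genes with an average log2 CPM over 1, 62.0% were below control in MDA-MB-231 library 1 and 52.6% in its library 2. For these genes BT-549 had 51.5% and 52.9% lower in libraries 1 and 2, NCI-H1395 53.7% and 53.4%, and AGS 50.7% and 47.9%. In the direct edgeR test over the 4 lines, 24 of 30 members were lower in library 2 than in library 1, against 45.3% of all genes tested. None passed the adjusted threshold, where 0.0293% of genes did. That test takes the number as 1 term shared by the 4 lines, although MDA-MB-231 did not share the difference seen in the other lines. TAF1D, an SL1 factor, was the 1 member with an unadjusted p below 0.05, where 8.72% of genes had one (-0.42 ± 0.16, edgeR adjusted p = 0.405). TAF1D had 174 CPM in NCI-H1395 library 1 and 109 CPM in library 2, with 107 CPM in the control. It had 184 CPM in AGS library 1 and 106 CPM in library 2, with 124 CPM in the control. In BT-549 it had 116 and 93.5 CPM in libraries 1 and 2 and 114 CPM in the control. MDA-MB-231 went the other way, with 121 CPM in library 1, 133 CPM in library 2 and 127 CPM in the control.

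**Figure D3:**
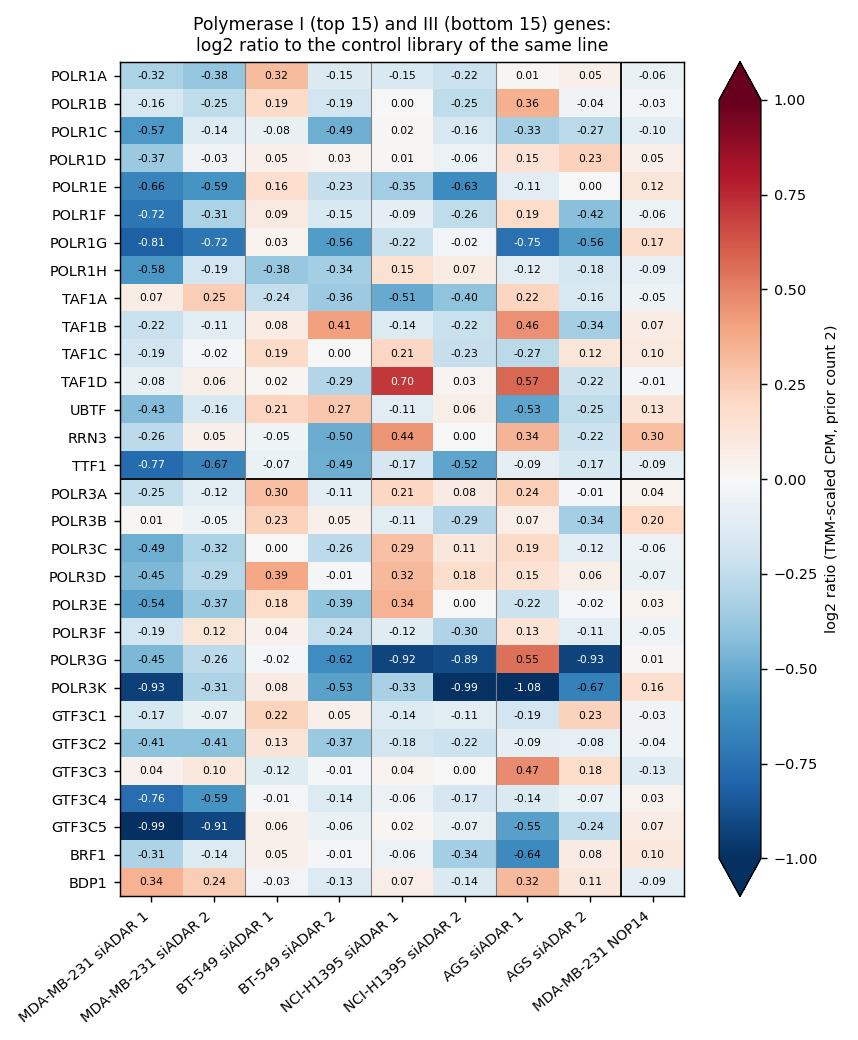
Log2 ratio of each member to the control library of its line, from TMM-scaled CPM with a prior count of 2, for the 8 ADAR siRNA libraries (siADAR 1 and 2) and, at the right, NOP14 overexpression over PCDH. Polymerase I genes are above the line and polymerase III genes below it. The MDA-MB-231 columns are mostly blue, with 26 and 24 members below 0, the BT-549 library 1 column holds 9, and the NOP14 column is pale.

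Of 26 other genes of both pathways, 16 were lower over the 4 lines and none passed edgeR's adjusted threshold, with 2 at an unadjusted p below 0.05. The lowest p belonged to POLR2L, a subunit shared by polymerases I, II and III (-0.30 ± 0.11, edgeR adjusted p = 0.308), TBP, the TATA-binding protein of SL1 and TFIIIB (-0.30 ± 0.13, adjusted p = 0.383), and the shared subunit POLR2F (-0.29 ± 0.14, adjusted p = 0.452). TBP was below control in all 8 ADAR siRNA libraries. BAZ2A, a silencer of ribosomal genes, was above control in all 8, as were 2.29% of genes with an average log2 CPM over 1, with a change of 0.21 ± 0.11 on the log2 scale (edgeR adjusted p = 0.465). TBP and BAZ2A are named for this direction, seen in their values. Over the 3 lines other than MDA-MB-231, 10 of the 26 genes were lower. There POLR2L was at -0.26 ± 0.13 (adjusted p = 0.423), TBP at -0.28 ± 0.14 (adjusted p = 0.434), POLR2F at -0.24 ± 0.16 (adjusted p = 0.562) and BAZ2A at 0.26 ± 0.12 (adjusted p = 0.389).

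NOP14 overexpression left the machinery close to the PCDH library. NOP14 itself was at 852 CPM with overexpression and 129 CPM in PCDH, a 6.61-fold difference. There is 1 library per arm, so no test is possible, and intervals cover counting error only. No member differed by 1.5-fold or more, a size reached by 15 of 11084 genes at 5 CPM or more (0.135%). The members' ratios ran between 0.913 and 1.23, with 15 lower (48.1% of genes were) and 15 higher and a median log2 ratio of -0.0013.

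The 3 highest ratios were those of RRN3, POLR3B and POLR1G. RRN3, which makes polymerase I able to start, was at 31.8 CPM under NOP14 overexpression and 25.8 CPM in PCDH (ratio 1.23, 95% counting interval 1.11 to 1.37). POLR3B, the second largest polymerase III subunit, was at 39.3 CPM under NOP14 overexpression and 34.2 CPM in PCDH (1.15, interval 1.04 to 1.26). POLR1G was at 12.2 CPM under NOP14 overexpression and 10.8 CPM in PCDH (1.13, interval 0.953 to 1.34). The interval of POLR1G includes 1. At the low end stood the TFIIIC subunit GTF3C3, at 31.8 CPM under NOP14 overexpression and 34.8 CPM in PCDH (0.913, interval 0.827 to 1.008). POLR1C, shared by both enzymes, was at 39.5 CPM under NOP14 overexpression and 42.5 CPM in PCDH (0.931, interval 0.852 to 1.02). TTF1 was at 23.3 CPM under NOP14 overexpression and 24.9 CPM in PCDH (0.936, interval 0.833 to 1.05). In all, 5 members had a counting interval that excluded 1: RRN3, POLR3B, UBTF and POLR1E above it and POLR1A below it. Of all genes at 5 CPM or more, 19.8% had such an interval. Among the 26 other pathway genes the ratios ran between 0.847 for TAF12 and 1.12 for GTF3C6.

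**Figure D4:**
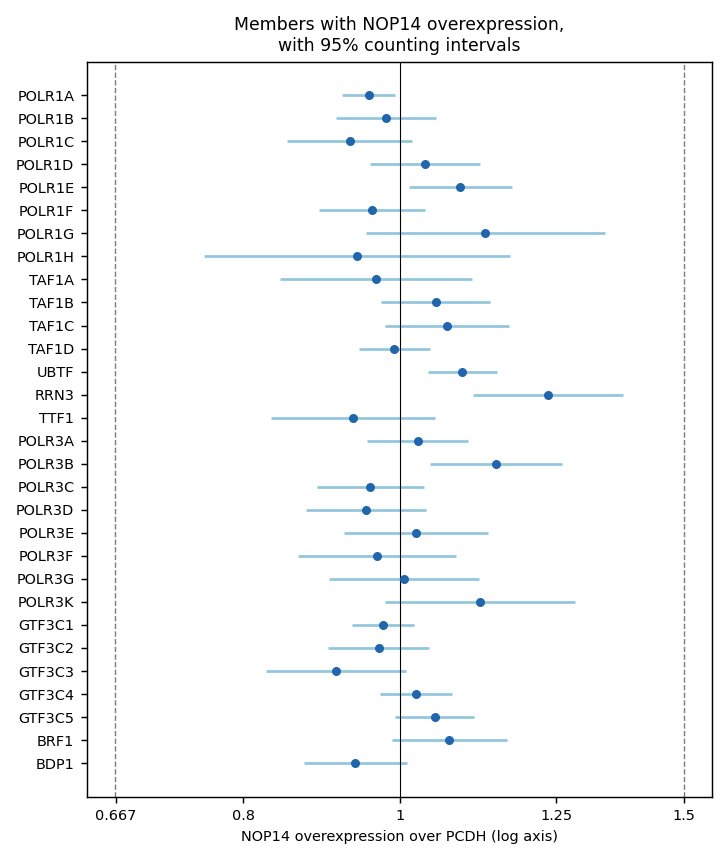
Ratio of NOP14 overexpression to PCDH in MDA-MB-231 for each member, on a log axis, with 95% counting intervals from 1 library per arm. Dashed lines mark 1.5-fold either way, and all 30 points lie between them, from 0.913 for GTF3C3 to 1.23 for RRN3.

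Most members differed in level between the cell lines, as did most genes. In edgeR's F test over the 12 siRNA libraries, 26 of 30 members passed the adjusted threshold, all 15 of polymerase III and 11 of 15 of polymerase I, where 79.5% of all genes did. The 4 others were POLR1C, POLR1H, TAF1D and TTF1. The largest member fold between control libraries was 8.03 and the smallest 1.19, with a median of 2.17, against 2.77 over all genes at 5 CPM or more. Without MDA-MB-231, 22 members passed, where 67.2% of genes did.

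POLR1E had the lowest p of all members (edgeR adjusted p = 2.68e-10). Its 170 CPM in the BT-549 control stood above 75.9 CPM in MDA-MB-231, 68.7 CPM in NCI-H1395 and 21.2 CPM in AGS, and BT-549 and AGS were each apart from the other lines in every siRNA library. RRN3 followed (edgeR adjusted p = 2.86e-07), highest in AGS. The RRN3 values were 92.6 and 63.1 CPM with ADAR siRNA and 73.3 CPM in the control for AGS, and 58.9 and 42.9 CPM with ADAR siRNA and 60.7 CPM in the control for BT-549. They were 33.7 and 24.8 CPM with ADAR siRNA and 24.8 CPM in the control for NCI-H1395, and 15.6 and 19.4 CPM with ADAR siRNA and 18.7 CPM in the control for MDA-MB-231. The order of the lines for RRN3 thus held in all siRNA libraries. In the other MDA-MB-231 libraries RRN3 was within the NCI-H1395 range, at 31.8 CPM under NOP14 overexpression and 25.8 CPM in PCDH.

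POLR1D, the other shared subunit, was also highest in AGS (edgeR adjusted p = 3.93e-07). It had 110 and 116 CPM with ADAR siRNA and 99.0 CPM in the control in AGS, and 72.8 and 72.2 CPM with ADAR siRNA and 70.5 CPM in the control in BT-549. MDA-MB-231 had 30.6 and 38.6 CPM with ADAR siRNA and 39.6 CPM in the control, and NCI-H1395 had 37.8 and 36.0 CPM with ADAR siRNA and 37.5 CPM in the control. The values of these last 2 lines overlapped for POLR1D.

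For polymerase III, the lowest p belonged to GTF3C4 (edgeR adjusted p = 3.15e-06), BDP1 (adjusted p = 8.45e-06) and BRF1 (adjusted p = 6.02e-05). GTF3C4 was highest in NCI-H1395, with the values given above. BDP1, the TFIIIB subunit, was highest in MDA-MB-231, at 171 and 159 CPM with ADAR siRNA and 134 CPM in the control. It had 71.3 and 66.3 CPM with ADAR siRNA and 72.8 CPM in the control in BT-549, 65.8 and 57.0 CPM with ADAR siRNA and 62.8 CPM in the control in NCI-H1395, and 93.7 and 81.0 CPM with ADAR siRNA and 74.9 CPM in the control in AGS. In the other MDA-MB-231 libraries BDP1 was lower, at 58.2 CPM under NOP14 overexpression and 62.0 CPM in PCDH. Without the MDA-MB-231 siRNA libraries its edgeR adjusted p for level was 0.213. BRF1, the other TFIIIB subunit, was highest in NCI-H1395, at 92 and 75.5 CPM with ADAR siRNA and 95.8 CPM in the control. It had 37.6 and 42.2 CPM with ADAR siRNA and 46.5 CPM in the control in MDA-MB-231, 51.3 and 49.1 CPM with ADAR siRNA and 49.5 CPM in the control in BT-549, and 25.4 and 41.8 CPM with ADAR siRNA and 39.5 CPM in the control in AGS. The NCI-H1395 level was apart from the other lines in every library for BRF1.

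POLR3G was highest in BT-549 in every library, at 76.5 CPM in its control against 25.5 to 32.7 CPM in the other control libraries (edgeR adjusted p = 0.00063). In MDA-MB-231, 6 members differed by 1.5-fold or more between the control siRNA library and PCDH, where 39.9% of genes did. BDP1 (2.17-fold), UBTF (1.83), POLR3E (1.83) and POLR3D (1.73) were higher in the siRNA control, and TAF1C (0.569) and GTF3C2 (0.620) lower.

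The siRNA libraries also gave values for the 3 members named for their NOP14 ratios alone. POLR3B had 37.4 and 35.9 CPM in the MDA-MB-231 ADAR siRNA pair and 37.2 CPM in the control, and 22.5 and 19.9 CPM with ADAR siRNA in BT-549 and 19.2 CPM in the control. NCI-H1395 had 17.3 and 15.2 CPM of POLR3B with ADAR siRNA and 18.7 CPM in the control, and AGS 31.7 and 23.8 CPM with ADAR siRNA and 30.2 CPM in the control. POLR3B was thus higher in MDA-MB-231 and AGS than in the other lines, and below control in 4 of 8 ADAR siRNA libraries.

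GTF3C3 had 31.9 and 33.4 CPM in the MDA-MB-231 ADAR siRNA pair and 31.1 CPM in the control, and 47.7 and 51.5 CPM with ADAR siRNA in BT-549 and 51.9 CPM in the control. NCI-H1395 had 60.9 and 59.5 CPM of GTF3C3 with ADAR siRNA and 59.4 CPM in the control, and AGS 62.2 and 50.8 CPM with ADAR siRNA and 44.8 CPM in the control. It was below control in 2 of 8 ADAR siRNA libraries, both of BT-549. POLR1C had 19.6 and 26.5 CPM in the MDA-MB-231 ADAR siRNA pair and 29.2 CPM in the control, and 36.0 and 27.1 CPM with ADAR siRNA in BT-549 and 38.0 CPM in the control. NCI-H1395 had 38.0 and 33.6 CPM of POLR1C with ADAR siRNA and 37.6 CPM in the control, and AGS 22 and 23.0 CPM with ADAR siRNA and 27.8 CPM in the control. POLR1C was below control in 7 of 8 ADAR siRNA libraries.

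**Figure D5:**
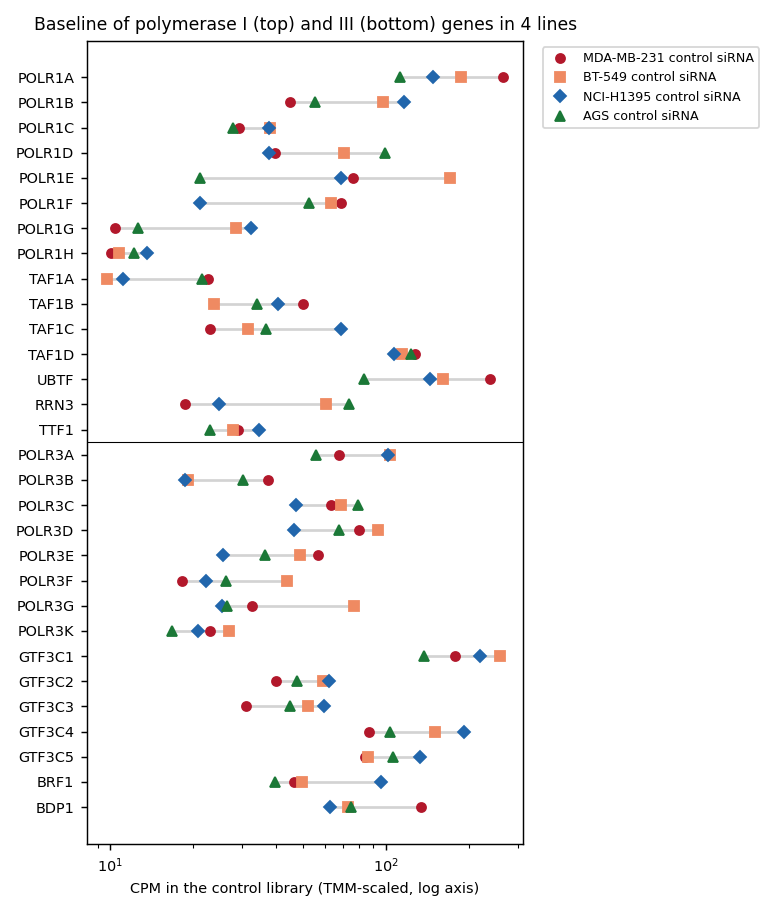
Level of each member in the control siRNA library of 4 lines, in TMM-scaled CPM on a log axis, with polymerase I genes above the line and polymerase III genes below it. A grey bar joins the lowest and highest line, and POLR1E has the longest, 21.2 CPM in AGS to 170 CPM in BT-549, while TAF1D has the shortest, 107 to 127 CPM.

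Compared per kilobase of exon over the control libraries, POLR1E had the highest mean level of the members (33.6 CPM per kilobase), followed by GTF3C5 (28.5), UBTF (22.1) and GTF3C1 (17.1). The lowest were POLR1H (3.17) and POLR3F (4.08). POLR1E ranked between the 1st and the 11th member over the libraries, so its place was not the same in every line.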

How the data were processed

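Counts per gene were deposited by the authors as whole numbers for 14 libraries. The submitters' processing notes name featureCounts 2.0.6, STAR 2.7.11a, fastp 0.23.4 and the build hg38. Bead capture of poly(A) RNA and random hexamer priming are per the labels' protocols. No source used here gives the strand setting. Of 62702 lines, 3 broken lines of 1 gene were not used. All columns matched a sample.

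Tests used edgeR 4.0.16 in R 4.3.3: filterByExpr, TMM, robust quasi-likelihood fits, Benjamini-Hochberg adjustment over all genes tested, threshold 0.05. For the test over lines, each line's ADAR siRNA libraries 1 and 2 were added up, giving 8 columns with cell line and treatment as terms (3 residual degrees of freedom). Within lines, 8 groups were fitted to the 12 siRNA libraries (4 residual degrees of freedom), taking the spread of the single control to equal that of the pairs. NOP14 ratios use TMM-scaled CPM with a prior count of 2. The fits were checked on simulated data with planted changes larger than those of the members over the lines. That check does not give the power for smaller changes. Genes named with all values were the 3 lowest p of each enzyme over the lines and for level, any with an unadjusted p below 0.05, the 3 highest and lowest NOP14 ratios, and POLR3G. Members and lists were chosen with earlier results of these data known. Alternatives were DESeq2 1.42.0, other scalings, no filter, other summing, the replicate block and leaving libraries out.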

Additional observations from a re-analysis of the deposited data

How the results depend on the processing

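Of 437 recomputed values, 413 counted as the same, 13 reversed, 10 moved and 1 passed the threshold. Of the 413, 234 were log2 fold changes of named genes, judged by sign and side of the threshold and not by size. For example, POLR3G over the lines ran between -0.68 and -0.20, against -0.38 in the main fit. Over the lines, DESeq2 called 1 member where edgeR called 0, and leaving out a library or line gave polymerase I medians of -0.18 to -0.03, polymerase III medians of -0.15 to -0.03 and 16 to 26 members lower. Library totals and no filter each gave 17 members lower, with medians of -0.039 and -0.041 for polymerase I and -0.0047 and -0.0058 for polymerase III, and RLE scaling gave 25. In MDA-MB-231 the polymerase III median was -0.25 with library totals and -0.22 without TTF1, GTF3C4 and GTF3C5. In NCI-H1395 library totals gave medians of -0.026 (polymerase I) and -0.021 (polymerase III). Leaving out 1 library gave polymerase I medians of -0.37 to -0.15 in MDA-MB-231, -0.23 to 0.052 in BT-549, -0.24 to -0.10 in NCI-H1395 and -0.18 to 0.012 in AGS. It gave polymerase III medians of -0.41 to -0.26, -0.13 to 0.067, -0.17 to -0.064 and -0.069 to 0.069 in the same lines. The count of members lower ran 24 to 26, 9 to 24, 17 to 25 and 14 to 21. Leaving out the MDA-MB-231 libraries for the level between lines, and leaving out the 3 members on 9q34, were chosen after seeing the data. The cause was not tested.

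The 13 reversed values were log2 fold changes of named genes within a line. In BT-549, GTF3C5 was -0.00035 with no filter. Leaving out 1 ADAR siRNA library at a time in BT-549 gave -0.064 to 0.067 for GTF3C5, -0.23 to 0.17 for POLR1E, -0.56 to 0.038 for POLR1G and -0.54 to 0.084 for POLR3K. In NCI-H1395, GTF3C5 was 0.065 with library totals and -0.10 to 0.012 with 1 library left out. In AGS, POLR3G was 0.0044 with RLE scaling, 0.070 with library totals, 0.0039 with DESeq2 and -0.93 to 0.56 with 1 library left out, and POLR1E was 0.040 with library totals and -0.11 to 0.0050 with 1 left out. The differences of library 2 from library 1 correlated at 0.46 between BT-549 and NCI-H1395, 0.23 between NCI-H1395 and AGS and 0.20 between BT-549 and AGS, and at -0.09 to 0.05 between MDA-MB-231 and the other lines. The numbers thus share a difference in 3 lines and not in MDA-MB-231, and the main fit of ADAR siRNA over the 4 lines did not use them. The direct test of library 2 against library 1 did take the number as 1 term over the 4 lines. With the replicate block the fit on 12 libraries called 0 members, with 25 lower. Members with shorter exons, below the median of 5643 bases, had a median of -0.18 over the 4 lines, against -0.05 for the longer ones. Other genes with an average log2 CPM over 1 differed in the same direction, with medians of -0.026 for shorter and 0.050 for longer exons. The 1 control library of each line limits every within-line value, and 1 library per arm the NOP14 ratios.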
